A study of Mus musculus with 11 samples.

Results

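The suppressors of cytokine signalling (SOCS) were examined as a family of 8 genes, Socs1 to Socs7 and Cish, taken by name from the 31936 genes of an RNA sequencing table of mouse macrophages. Of these 8, 7 were expressed highly enough to be tested among 12969 genes, and Cish was not. The cells were thioglycollate-elicited peritoneal macrophages of female mice, the inflammatory macrophages that collect in the abdominal cavity after an irritant is injected. Of the libraries, 6 came from cells given a microRNA-150 mimic, the arm that the submitters describe as overexpression, and 5 from cells labelled negative control. The submitters omitted a further control for improper fragmentation, so 11 of 12 samples were analysed. The sources used here give no mouse strain, age, mimic dose, exposure time or identity of the negative control, and do not say that replicates are separate animals or cultures, so the spread behind each p-value may be technical.

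Some SOCS proteins are induced by cytokines and switch off the signal that induced them. Cytokine receptors activate JAK kinases, which phosphorylate STAT transcription factors, and STATs switch on some SOCS genes along with their other targets. Each SOCS protein carries an SH2 domain, which binds phosphorylated tyrosines, and a SOCS box, which recruits elongins and a cullin so that the bound protein is marked for degradation. SOCS1 and SOCS3 also hold a short region that blocks JAK activity directly. In macrophages SOCS1 is best known for limiting interferon signalling, and SOCS3 for limiting signals through the IL-6 receptor chain gp130.

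The promoters of the members known for induction by STATs are shown because they differ in the elements they hold. RefSeq promoter windows (GRCm38.p6, from 250 bases before to 50 after the annotated start) were matched for Socs1, Socs3, Socs4 and Cish, which is 4 of 8 members. Socs2, Socs5, Socs6 and Socs7 were not matched. Capitals mark matches to TTCNNNGAA, the palindromic GAS element that STAT dimers bind, and, on either strand, to GAAA followed after any 2 bases by GAAA, the core of the interferon-stimulated response element (ISRE) bound by interferon regulatory factors. The Socs1 window lies at chr16:10785487-10785786 on the minus strand, the Socs3 window at chr11:117969317-117969616 on the minus strand, and the Cish window at chr9:107296409-107296708 on the plus strand.
Socs1: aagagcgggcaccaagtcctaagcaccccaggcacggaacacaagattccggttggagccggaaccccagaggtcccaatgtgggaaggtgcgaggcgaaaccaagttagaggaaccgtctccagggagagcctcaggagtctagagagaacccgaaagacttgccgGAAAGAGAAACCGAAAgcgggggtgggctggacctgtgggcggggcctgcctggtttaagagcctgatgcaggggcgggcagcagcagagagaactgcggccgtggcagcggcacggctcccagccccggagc
Socs3: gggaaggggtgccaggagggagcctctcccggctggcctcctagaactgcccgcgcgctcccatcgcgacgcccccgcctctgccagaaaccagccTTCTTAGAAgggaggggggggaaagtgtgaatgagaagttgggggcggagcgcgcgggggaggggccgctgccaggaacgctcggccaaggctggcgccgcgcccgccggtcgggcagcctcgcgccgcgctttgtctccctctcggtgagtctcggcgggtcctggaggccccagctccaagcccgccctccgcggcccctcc
Cish: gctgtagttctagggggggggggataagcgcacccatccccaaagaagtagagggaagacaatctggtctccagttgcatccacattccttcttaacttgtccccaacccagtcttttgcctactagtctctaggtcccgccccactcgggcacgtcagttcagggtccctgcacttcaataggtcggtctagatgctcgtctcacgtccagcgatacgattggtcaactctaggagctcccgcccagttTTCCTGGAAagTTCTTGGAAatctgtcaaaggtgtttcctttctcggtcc

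The Socs1 window held 2 overlapping ISRE matches, whose first bases lie at -83 and -77 from the start, and no GAS match. The Socs3 window held 1 GAS match, starting at -154. The Cish window held 2 GAS matches, starting at 1 and 12. Socs4 held neither. TTCNNNGAA reads alike on both strands. Of 32851 mouse promoter windows of this length, 8.30% held a GAS match and 3.44% an ISRE match, while 2 or more matches were found in 0.457% for GAS and 0.225% for ISRE. A match describes letters in the window and does not show that a factor was bound in these cells.

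**Figure D1:**
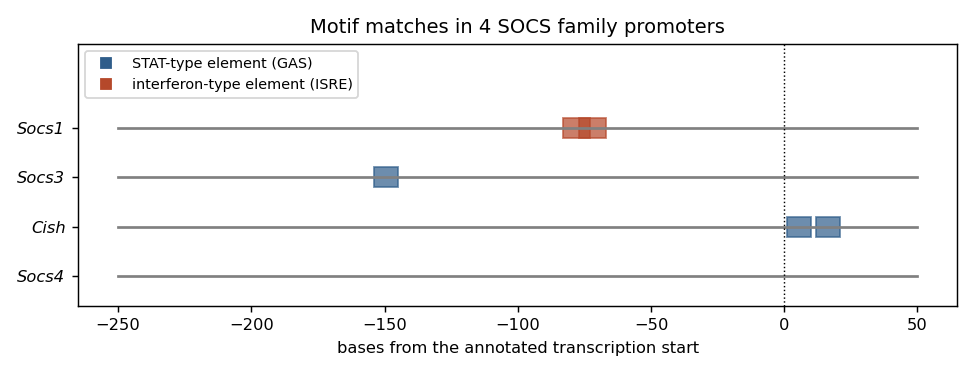
Matches to the GAS element (blue) and the ISRE core (red) in the 4 SOCS family promoters matched, by distance in bases from the annotated transcription start (dotted line at 0). Socs1 has 2 overlapping ISRE matches, Socs3 has 1 GAS match and Cish 2, and Socs4 has none.

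Levels are given as CPM, the number of reads of a gene divided by a scaled total of its library, or as the log2 of that value. The libraries held 20313901 to 25473814 reads assigned to genes with the mimic and 18538509 to 22668862 in controls. All 8 macrophage markers were measured, with 2 higher and 2 lower, and their summed level was 16310 to 19698 CPM with the mimic and 18086 to 20403 CPM in controls. Lists for T cells, NK cells, mast cells and dendritic cells summed to at most 5.62 CPM in any library. The B cell list summed to 151 to 163 CPM with the mimic and 176 to 180 CPM in controls, nearly all from Cd22. The eosinophil list, nearly all Siglecf, summed to 27.4 to 28.9 CPM with the mimic and 33.4 to 36.4 CPM in controls. The neutrophil list, mostly Csf3r, summed to 116 to 134 CPM with the mimic and 127 to 138 CPM in controls. In it S100a8 averaged 3.30 ± 0.33 (SD, n = 6) log2 CPM with the mimic and 3.86 ± 0.16 (SD, n = 5) in controls. It was the marker of this list that is counted as lower below. Its reads numbered 1393 over the mimic libraries and 1503 over the controls. Such totals cover 6 mimic libraries but 5 controls, so they do not compare levels directly. S100a9, Ly6g, Mpo and Ngp had at most 9 reads each in either group. The mesothelial and fibroblast list summed to 11.0 to 27.5 CPM with the mimic and 17.8 to 26.7 CPM in controls. A single tested marker was lower in each of the B cell, T cell, neutrophil, eosinophil and dendritic cell lists, and in the NK cell list Klrk1 was higher, with 84 reads over the mimic libraries and 18 over the controls. Each of these lists had only 1 to 3 tested markers. By the same rule, given below, 15.4% of all tested genes were higher and 14.6% lower, and the marker counts are to be read against those shares. No marker of any list was at 0 in every library. The part of these cells in the results was not tested, and in bulk samples fewer cells of a type and less RNA per cell cannot be told apart. Mimic replicates 3, 4 and 6 stood apart in a trend with transcript length: the correlation of each gene's deviation with length (Spearman) was 0.29 to 0.35 in these libraries, -0.36, 0.05 and -0.09 in mimic replicates 1, 2 and 5, and -0.26 to -0.15 in the 5 controls. Results are therefore also given without mimic replicates 3, 4 and 6. Mimic replicate 1, with the lowest correlation of all 11 libraries, stays in those fits.

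The family split with the mimic: Socs1 rose, Socs3 fell, Socs4 rose slightly, and Socs2, Socs5, Socs6 and Socs7 did not pass the test. A gene was called at a Benjamini-Hochberg adjusted p below 0.05 in limma, a linear model fitted to the log2 CPM of all tested genes. By this rule 2 of the 7 tested members were higher, against 15.4% of all tested genes, and 1 was lower, against 14.6%. In either direction, 30% of all tested genes were called. In the authors' deposited table Socs1 and Socs3 pass an adjusted p of 0.05, against 9.2% of all 31936 genes. That share also counts genes too low to be tested here, so it does not compare with the 30%. With 7 members tested, these counts do not set the family apart from other genes. The median log2 fold change was 0.01 over the 7 members and 0.00071 over all tested genes.

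Socs1 (ENSMUSG00000038037, chromosome 16, 10782240 to 10785536, minus strand, GRCm38) is the member best known for restraining interferon receptors. Its level was 1.80, 1.43, 1.30, 1.14, 1.55 and 1.33 log2 CPM in mimic replicates 1 to 6, against 0.44, 0.49, 0.94, 1.23 and 0.64 in control replicates 1, 2, 3, 4 and 6. Of the mimic libraries, 5 of 6 lay above every control, and mimic replicate 4, the lowest, lay just below control replicate 4, the highest. These levels rest on 53 to 72 reads per mimic library and 28 to 44 per control library. Socs1 averaged 1.42 ± 0.23 (SD, n = 6) log2 CPM with the mimic and 0.75 ± 0.33 (SD, n = 5) in controls. The rise was 0.67 ± 0.16 (SE) on the log2 scale, or 1.60-fold, with a 95% interval of 0.34 to 1.00 (limma adjusted p = 0.00513). By exact permutation of the group labels, two-sided, p was 0.00433. No member had every mimic library above every control, which held for 8.89% of all tested genes. Among the 1997 genes called higher, Socs1 ranked 240 by size. The lowest mimic values were those of replicates 4, 3 and 6, the libraries with the highest correlation with transcript length. The highest was that of replicate 1, the library with the lowest correlation. Without mimic replicates 3, 4 and 6 the rise was 0.84 (limma adjusted p = 0.00146). That fit drops the lowest mimic values and keeps the highest, so its larger rise is not separate support.

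Socs3 (ENSMUSG00000053113, chromosome 11, 117966079 to 117970047, minus strand), the feedback inhibitor of gp130 receptors and a classical STAT3 target, moved the other way. It measured 3.57, 3.44, 3.43, 3.38, 3.44 and 3.34 log2 CPM in mimic replicates 1 to 6, against 3.97, 3.78, 4.09, 3.98 and 3.94 in control replicates 1, 2, 3, 4 and 6. The groups did not overlap: the highest mimic library, replicate 1, lay below the lowest control, replicate 2. In the same direction 6.04% of all tested genes had groups that did not overlap. These levels rest on 233 to 268 reads per mimic library and 278 to 385 per control library. The fall was 0.52 ± 0.063 (SE) on the log2 scale, 1.43-fold, with a 95% interval of -0.65 to -0.39 (limma adjusted p = 1.46e-05). By exact permutation p was 0.00216, the lowest value possible with 6 and 5 libraries. Socs3 ranked 293 by size among the 1895 genes called lower. Spread within a group was small, 0.077 (SD, n = 6) with the mimic and 0.11 (SD, n = 5) in controls. Without mimic replicates 3, 4 and 6 the fold change was -0.47 (limma adjusted p = 3.46e-05).

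**Figure D2:**
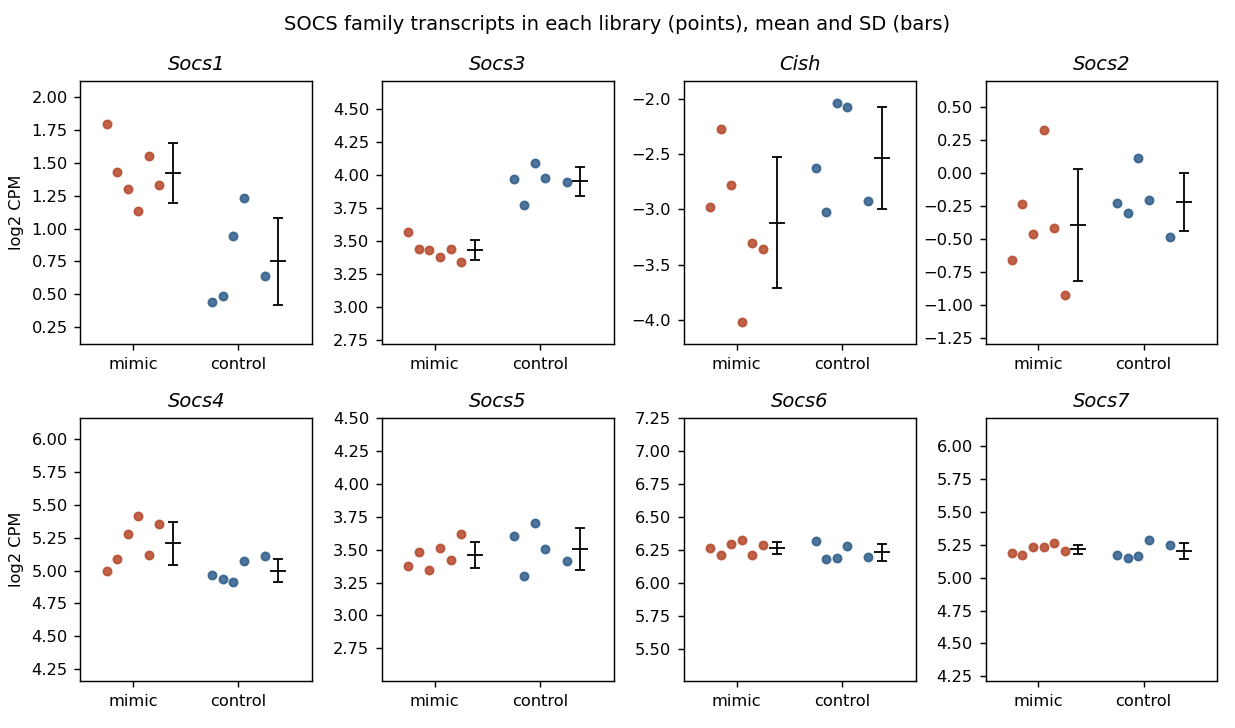
Level of each SOCS family transcript in log2 CPM (vertical axis) in the 6 mimic libraries (left, red) and the 5 control libraries (right, blue); points are libraries and black bars the mean and SD, and the vertical axes differ in position between genes and span more for Cish. Socs3 lies lower in all 6 mimic libraries, Socs1 lies higher in 5 of 6, and Socs6 and Socs7 overlap closely.

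The longest annotated transcripts of Socs1 and Socs3 have 2908 and 2552 nt. After a correction of each library for transcript length their log2 fold changes were 0.68 (limma adjusted p = 0.00272) and -0.50 (limma adjusted p = 4.18e-06). The ratio of the pair within a library, which does not depend on how the library is scaled, tests the unequal change directly. The log2 ratio of Socs1 to Socs3 was -1.77, -2.02, -2.12, -2.24, -1.89 and -2.01 in mimic replicates 1 to 6, against -3.53, -3.29, -3.15, -2.75 and -3.30 in control replicates 1, 2, 3, 4 and 6. All 6 mimic libraries lay above all 5 controls. Among single tested genes 14.9% had groups that did not overlap, in either direction, and the share over gene pairs was not computed. The ratio joins genes already called in opposite directions, so its separation is not evidence apart from those calls. The mean ratio was -2.01 ± 0.17 (SD, n = 6) with the mimic and -3.20 ± 0.29 (SD, n = 5) in controls, a difference of 1.19 on the log2 scale, 2.29-fold. The two-sided exact permutation test gave p = 0.00216, or 0.00866 adjusted over the 4 related pairs compared. Reads of Socs1 thus stood at a larger fraction of those of Socs3 with the mimic, although Socs3 reads remained more numerous in every library.

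Socs4 (ENSMUSG00000048379, chromosome 14, 47276931 to 47296102, plus strand), a member known for binding the epidermal growth factor receptor, passed the test narrowly. It measured 5.00, 5.09, 5.28, 5.41, 5.12 and 5.36 log2 CPM in mimic replicates 1 to 6, against 4.97, 4.94, 4.91, 5.07 and 5.11 in control replicates 1, 2, 3, 4 and 6. The 3 highest values were those of mimic replicates 4, 6 and 3, which are also the 3 libraries with the highest correlation with transcript length. The longest annotated Socs4 transcript has 6877 nt, and the part of the length trend in its rise was not tested beyond the values that follow. The rise was 0.21 ± 0.071 (SE) on the log2 scale, 1.16-fold (limma adjusted p = 0.0344; exact permutation p = 0.0303). Without these 3 libraries it was 0.070 (limma adjusted p = 0.431), and after the length correction 0.14 (limma adjusted p = 0.0417). Leaving out 1 library at a time, the call was also lost without mimic replicate 3, 4 or 6 and without control replicate 1, 2 or 3 (limma adjusted p of up to 0.0864). In the authors' deposited table Socs4 has a log2 fold change of 0.22 and an adjusted p of 0.0687.

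Socs5 (ENSMUSG00000037104, chromosome 17, 87107679 to 87137839, plus strand), the closest relative of Socs4, had a lowest, median and highest level of 3.35, 3.45 and 3.62 log2 CPM with the mimic and 3.30, 3.51 and 3.70 in controls. Its fold change was -0.047 ± 0.075 (SE) on the log2 scale, with a 95% interval of -0.21 to 0.11 (limma adjusted p = 0.66). The log2 ratio of Socs4 to Socs5 averaged 1.75 ± 0.14 (SD, n = 6) with the mimic and 1.49 ± 0.20 (SD, n = 5) in controls. This difference of 0.26 gave an exact permutation p of 0.0368, or 0.0736 over the 4 pairs, and did not pass. It was 0.15 without mimic replicates 3, 4 and 6.

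Socs6 and Socs7, which bind insulin receptor substrates and other adaptors and are less tied to STAT signalling, varied least. Socs6 (ENSMUSG00000056153, chromosome 18, 88665224 to 88927481, minus strand) had a lowest, median and highest level of 6.21, 6.27 and 6.33 log2 CPM with the mimic and 6.18, 6.19 and 6.32 in controls. Its log2 fold change was 0.033 ± 0.041 (SE), with a 95% interval of -0.055 to 0.12 (limma adjusted p = 0.571). Socs7 (ENSMUSG00000038485, chromosome 11, 97362551 to 97398542, plus strand) had 5.17, 5.21 and 5.26 with the mimic and 5.15, 5.17 and 5.28 in controls, and its log2 fold change was 0.012 ± 0.042 (SE; 95% interval -0.076 to 0.10; limma adjusted p = 0.844). For both genes the interval excludes a change as large as that of Socs1 or Socs3, in either direction. The log2 ratio of Socs6 to Socs7 was 1.05 ± 0.055 (SD, n = 6) with the mimic and 1.03 ± 0.075 (SD, n = 5) in controls (exact permutation p = 0.621, before and after adjustment over the 4 pairs).

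Cish and Socs2, the members induced through STAT5 by growth hormone and related cytokines, were scarce. Socs2 (ENSMUSG00000020027, chromosome 10, 95385362 to 95417180, minus strand) was read 12 to 30 times per library. It measured -0.66, -0.23, -0.46, 0.33, -0.42 and -0.92 log2 CPM in mimic replicates 1 to 6, against -0.23, -0.30, 0.12, -0.20 and -0.49 in control replicates 1, 2, 3, 4 and 6. The mimic libraries enclosed the whole range of the controls. The fold change was -0.18 ± 0.21 (SE) on the log2 scale, with a 95% interval of -0.63 to 0.28 that holds changes of either sign (limma adjusted p = 0.557). It was -0.32 without mimic replicate 4, -0.069 without mimic replicate 6 and -0.091 without control replicate 3.

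Cish (ENSMUSG00000032578, chromosome 9, 107296026 to 107302784, plus strand) was read 2, 4, 3, 1, 2 and 2 times in mimic replicates 1 to 6, against 3, 2, 5, 4 and 2 times in control replicates 1, 2, 3, 4 and 6. Pooled over libraries, this was 14 reads or 0.0996 CPM (exact 95% Poisson interval 0.0544 to 0.167) with the mimic and 16 reads or 0.157 CPM (0.0895 to 0.254) in controls. The intervals cover counting error only and overlap. No library reached the level required for testing, and the exact permutation test on log2 CPM gave p = 0.108. A difference was not detectable at this depth. In the annotation used here 740 nt of its exons overlap genes on the other strand, Gm17040 and Gm17041, and the strand setting of the counting was not given, so some of these few reads may belong to them. The log2 ratio of Cish to Socs2 averaged -2.72 ± 0.84 (SD, n = 6) with the mimic and -2.32 ± 0.32 (SD, n = 5) in controls (exact permutation p = 0.409, or 0.545 over the 4 pairs). The difference was -0.41 with all libraries, -0.083 without mimic replicate 4, which had 1 read of Cish, and -0.099 without mimic replicates 3, 4 and 6.

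**Figure D3:**
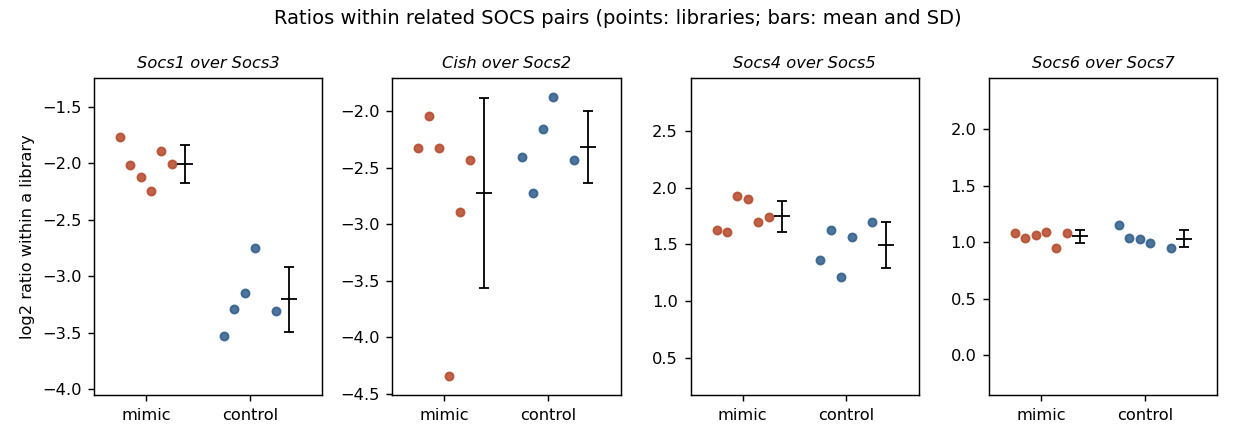
Log2 ratio within each library (vertical axis) for 4 pairs of related members, in the 6 mimic libraries (left, red) and the 5 control libraries (right, blue), with mean and SD as black bars. The groups separate fully for Socs1 over Socs3 and overlap for the other 3 pairs.

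**Figure D4:**
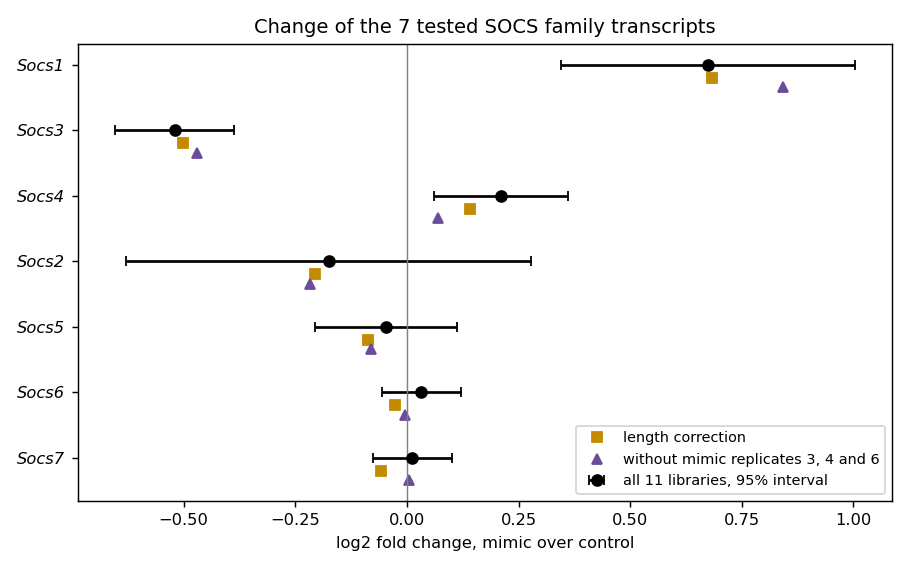
Log2 fold change of mimic over control (horizontal axis) for the 7 tested members, from all 11 libraries with its 95% interval (black), after correction for transcript length (orange squares) and without mimic replicates 3, 4 and 6 (purple triangles). Without the 3 libraries Socs1 is at 0.84 and Socs3 at -0.47, on the same sides of 0 as with all libraries, whereas Socs4 is at 0.21 with all libraries and 0.070 without the 3.

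Between members, levels were compared as reads per kilobase of the longest annotated transcript, scaled like CPM (RPKM). Socs6 stood highest, at 12.7 ± 0.42 RPKM (SD, n = 6) with the mimic and 12.5 ± 0.55 RPKM (SD, n = 5) in controls. Socs3 ranked 4 of 8 with the mimic, at 4.23 ± 0.23 RPKM, but 2 of 8 in controls, at 6.07 ± 0.47 RPKM. Socs7 had 5.29 ± 0.12 RPKM with the mimic and 5.25 ± 0.22 RPKM in controls. Socs4 had 5.40 ± 0.61 RPKM with the mimic and 4.65 ± 0.28 RPKM in controls. With the mimic Socs4 and Socs7 did not differ beyond their spread, and in controls the ranges of Socs3 (5.36 to 6.67 RPKM) and Socs7 (5.05 to 5.55 RPKM) overlapped. The range of Socs3 with the mimic (3.96 to 4.63 RPKM) lay below that of Socs7 (5.15 to 5.47 RPKM). The next levels were those of Socs5, at 2.37 ± 0.17 RPKM with the mimic and 2.45 ± 0.27 RPKM in controls, and of Socs1, at 0.925 ± 0.15 RPKM with the mimic and 0.583 ± 0.14 RPKM in controls. Socs2 had 0.181 ± 0.060 RPKM with the mimic and 0.199 ± 0.032 RPKM in controls, and Cish had 0.0216 ± 0.010 RPKM with the mimic and 0.0330 ± 0.012 RPKM in controls. Summed over the family the level was 30.1 to 32.4 RPKM with the mimic and 29.7 to 32.9 RPKM in controls, so the ranges overlapped while the share of Socs3 was 13.6% with the mimic and 19.2% in controls, and that of Socs1 was 2.97% with the mimic and 1.84% in controls. With the union of all annotated exons in place of the longest transcript the order of the 8 members was the same in each group.

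The rest of the pathway was described from 12 lists, in which 129 genes could be tested. With the mimic 42 rose and 19 fell, against the background shares of 15.4% and 14.6% given above. When mimic replicates 3, 4 and 6 were left out, 40 list genes were higher and 8 lower, while the shares over all tested genes were 9.36% higher and 6.83% lower. Counts without these libraries are to be read against those lower shares. Ligands were mostly too low to test, 11 of 17. Ifnb1, encoding interferon-beta, had 15 reads over the mimic libraries and 2 over the controls. Il6 had 13 over the mimic libraries and 7 over the controls, and Il10 had 16 in each. The totals cover 6 mimic libraries but 5 controls, so the equal totals of Il10 do not mean equal levels. Of the 6 ligands tested, 3 rose and 0 fell, and the median change was 0.23 on the log2 scale. They were Il15 at 0.36 ± 0.075 (SE), Igf1 at 0.24 ± 0.054 and Il27 at 0.91 ± 0.20 (limma adjusted p of at most 0.00406). Il15 is a survival factor for lymphocytes and Il27 a cytokine that signals through gp130. The list also counts Igf1, a growth factor whose receptor is itself a kinase and not a JAK-coupled receptor. These 3 ligands were also called without mimic replicates 3, 4 and 6, where Igf1 was at 0.13.

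Among 22 tested receptor genes 6 rose and 4 fell (median 0.021), and 7 rose and 2 fell without mimic replicates 3, 4 and 6. With all libraries 45.5% of this list was called, against 30% of all tested genes. Il21r, the IL-21 receptor, rose by 0.98 ± 0.10 (SE) on the log2 scale, Il15ra by 0.60 ± 0.069 and Il13ra1 by 0.30 ± 0.043, while Il27ra fell by 0.40 ± 0.066 (limma adjusted p from 2.71e-06 to 0.000399). Receptor chains that SOCS1 and SOCS3 act upon were measured well. Ifnar1, of the type I interferon receptor, had a log2 fold change of 0.044 ± 0.035 (limma adjusted p = 0.364), and Il6st, which encodes gp130, 0.029 ± 0.046 (limma adjusted p = 0.656). Ifngr1, of the interferon-gamma receptor, fell by 0.19 ± 0.047 (limma adjusted p = 0.00693). These 3 were chosen for their role as partners and not by size of change.

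Of the 4 JAK kinases, Jak2 rose by 0.23 ± 0.056 and Jak1 by 0.12 ± 0.043 on the log2 scale (limma adjusted p of at most 0.0378), and none fell. By the same rule 30% of all tested genes were called. Jak2 was at 0.12 without mimic replicates 3, 4 and 6 (limma adjusted p = 0.0462), and Jak1 was then not called (0.051, limma adjusted p = 0.336). Jak1 was not called after the length correction either (0.079, limma adjusted p = 0.0653), nor in 8 of the 11 fits that left out 1 library: mimic replicates 3, 4 and 6 and each control. Among the STAT genes, Stat2, which acts in type I interferon signalling, rose by 1.56 ± 0.090 (SE; limma adjusted p = 4.79e-09). Stat3, the factor upstream of Socs3, rose by only 0.15 ± 0.035 while Socs3 fell, and Stat5b, upstream of Cish and Socs2, fell by 0.18 ± 0.039 (limma adjusted p up to 0.00524). After the length correction Stat3 did not pass (0.093, limma adjusted p = 0.0548).

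Known STAT targets followed different directions. Among 16 tested interferon targets, 12 were higher and 0 lower (median 0.93 on the log2 scale), and 14 were higher without mimic replicates 3, 4 and 6. Gbp2, an interferon-induced GTPase, rose by 1.57 ± 0.061 (SE) and Gbp3, a relative in a family of similar genes, by 1.75 ± 0.070; Ifit3 and Ifit1, antiviral effectors also of a gene family, rose by 3.61 ± 0.12 and 2.80 ± 0.11 (limma adjusted p of at most 4.23e-10). This list was chosen with the interferon response of these samples known. Over all tested genes 15.4% were higher and 14.6% lower, while of 16 STAT3 targets 4 rose and 5 fell (median -0.075). The lower ones included Cebpb, an inflammatory transcription factor, at -0.66 ± 0.11, Saa3, an acute phase protein, at -0.49 ± 0.12, and Junb, an AP-1 factor, at -0.33 ± 0.089, while Il1rn, the IL-1 receptor antagonist, rose by 0.60 ± 0.045 (limma adjusted p up to 0.0133 for these 4). Without mimic replicates 3, 4 and 6 the STAT3 targets had 5 higher and 1 lower with a median of 0.0094, beside 9.36% higher and 6.83% lower over all tested genes in the same fit. Cebpb stayed lower (-0.42, limma adjusted p = 0.000145), whereas Saa3 (-0.29, 0.208) and Junb (-0.15, 0.101) were not called.

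**Figure D5:**
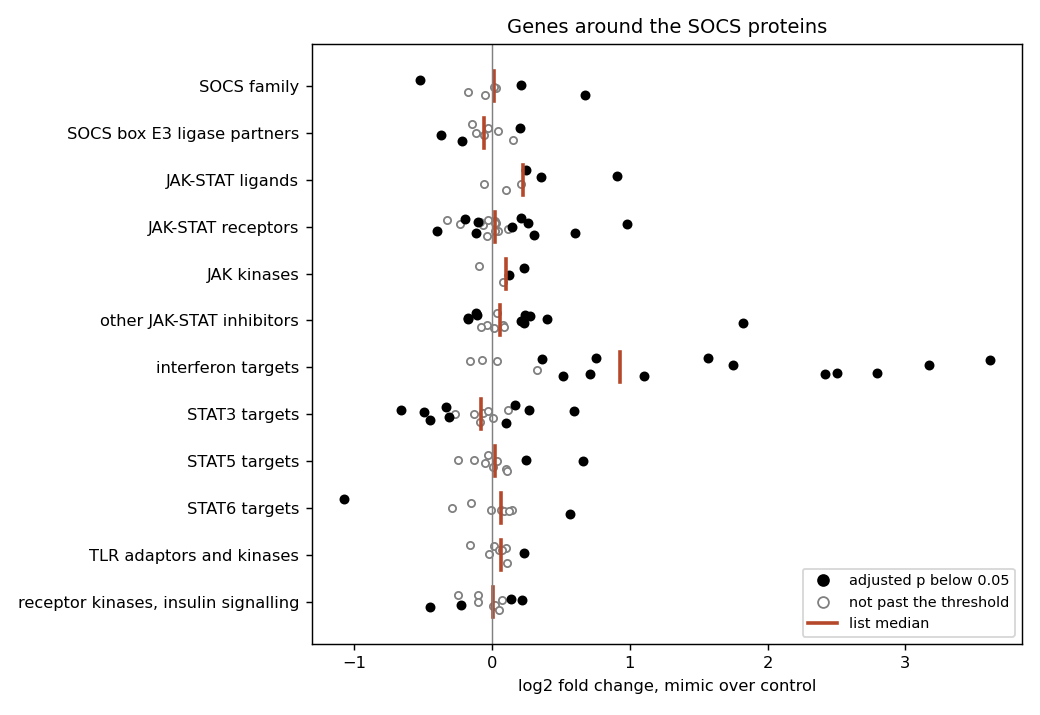
Log2 fold change of mimic over control (horizontal axis) for tested genes of the SOCS family and 11 pathway lists; filled points passed an adjusted p of 0.05, open points did not, and red bars are list medians. Interferon targets reach furthest right with a median of 0.93, and the SOCS family has members on both sides.

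Of 10 tested STAT5 targets 2 were higher and 0 lower (Igf1, given above, and the cyclin gene Ccnd2, at 0.66 ± 0.16). Called genes were 20% of these targets and 22.2% of the STAT6 targets, against 30% of all tested genes. Of 9 STAT6 targets Arg1, encoding arginase, was higher by 0.57 ± 0.099 and the chemokine gene Ccl24 lower by 1.07 ± 0.33 (limma adjusted p up to 0.0228 for Ccnd2, Arg1 and Ccl24). Ccl24 was not called without control replicate 1 either. Without mimic replicates 3, 4 and 6 Arg1 was at 0.51 and Ccnd2 at 0.56, close to their values with all libraries, and Ccl24 at -0.57, and none of the 3 was called (limma adjusted p from 0.055 to 0.168).

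Other inhibitors of the pathway moved in both directions, 6 of 16 higher and 4 lower (median 0.060), or 5 and 1 without mimic replicates 3, 4 and 6. Over all tested genes 15.4% were higher and 14.6% lower, or 9.36% and 6.83% without these 3 libraries. Usp18, which removes ISG15 and blocks the type I interferon receptor, averaged 6.82 ± 0.16 (SD, n = 6) log2 CPM with the mimic and 5.00 ± 0.22 (SD, n = 5) in controls, a rise of 1.82 ± 0.093 (SE; limma adjusted p = 1.19e-09). Lrrk2 rose by 0.40 ± 0.045, and the phosphatase genes Ptprc and Ptpn6, encoding CD45 and SHP-1, by 0.28 ± 0.055 and 0.21 ± 0.045 (limma adjusted p of at most 0.00273). The list counts Lrrk2, a kinase, although it is not an established inhibitor of JAK-STAT signalling. Ptprc was at 0.16 without mimic replicates 3, 4 and 6, and still called. The partners of the SOCS box had 1 of 9 tested genes higher and 2 lower, or 33.3% called, near the 30% of all tested genes. Cul2, a cullin, rose by 0.20 ± 0.046, while Tceb2, encoding elongin B, fell by 0.37 ± 0.090 and Rnf7, the RING partner of cullin 5, by 0.22 ± 0.070 (limma adjusted p up to 0.0283). After the length correction neither Tceb2 (-0.12, limma adjusted p = 0.0565) nor Rnf7 (-0.089, limma adjusted p = 0.165) was called, nor were they without mimic replicates 3, 4 and 6. Rnf7 was also not called without mimic replicate 3, 4 or 6 or control replicate 1, 2 or 3 alone.

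Among other proteins that SOCS family members are reported to bind, 1 of 8 Toll-like receptor adaptors and kinases was higher, Traf6, at 0.23 ± 0.048 (limma adjusted p = 0.00228; 0.15 without mimic replicates 3, 4 and 6, still called), and 0 were lower. Of 11 receptor kinase and insulin signalling genes 2 were higher and 2 lower. Called genes were 12.5% of the Toll-like receptor list and 36.4% of the receptor kinase list, against 30% of all tested genes. Igf1r, the receptor of insulin-like growth factor, fell by 0.45 ± 0.087 and Irs2, an insulin receptor substrate, by 0.22 ± 0.058, while Vav1 rose by 0.14 ± 0.041 and Ptk2, focal adhesion kinase, by 0.22 ± 0.066 (limma adjusted p up to 0.0224). In this list 1 gene was higher and 3 lower without mimic replicates 3, 4 and 6, and Ptk2 was at 0.12 and not called (limma adjusted p = 0.214). Leaving out single libraries, Ptk2 was not called without mimic replicate 3 or 6 or control replicate 1 or 6, nor Vav1 without control replicate 6.

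Within groups, the genes whose levels followed Socs1 most closely over the 11 libraries were Taf11, Pld2 and Ripk3, with Pearson r of 0.91, 0.90 and 0.90 after the group means were subtracted, among 8156 genes compared. For Socs3 they were Zfas1, Timm50 and Dcaf15, with r of 0.93, 0.88 and 0.88 among 8155 genes. These are the highest of a very large number of values over 11 libraries that share depth and length trends, and are given as a description. Their own changes differed from those of the members: Zfas1, a noncoding RNA, rose by 0.89 on the log2 scale with the mimic while Socs3 fell, and Taf11, Pld2 and Ripk3 did not pass the test (limma adjusted p of at least 0.0984).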

How the data were processed

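The submitters' processing notes name the aligner STAR, Subread with its counter featureCounts, and edgeR. No version, build, annotation or strand setting of that work was given in the sources used here. The authors deposited log2 CPM, each value being the log2 of whole reads plus 0.5 over a scaled library total, and whole reads were recovered from 100% of values within 0.01 read. The authors' deposited table also holds a log2 fold change, p-values, and scores (t, log odds and a signed fold) per gene; only the first 2 are quoted. The first row of each of 31936 gene IDs was kept, from 32265 rows.

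Linear models with a group term were fitted to the deposited log2 CPM with limma 3.58.1 in R 4.3.3, with an intensity trend and robust moderation, on genes at or above -1 log2 CPM in at least 5 libraries, with Benjamini-Hochberg adjustment over all genes tested. Exact permutation tests were two-sided. The fits were tested on simulated data. Members, lists, tests and alternatives were chosen with earlier results of these data known. Named list genes are up to 4 called genes of each list by smallest p; genes of similar pattern had a mean log2 CPM of at least 3. Ifnb1, Il6, Il10, Ifnar1, Il6st and Ifngr1 were named for their roles. Gene positions and transcript lengths are from GENCODE M21 (GRCm38), which may not be the authors' annotation. No 2 libraries of a group looked like 1 library deposited again: chi-square over degrees of freedom was 2.57 to 44.1. The length correction was a lowess fit per library with a span of 0.3. Values of some genes are not reported here, and the STAT gene list is not plotted.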

Additional observations from a re-analysis of the deposited data

Results flagged for a closer look

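The log2 ratio of Cish to Socs2 in mimic replicate 4 was -4.35, far below the other mimic libraries (-2.89 to -2.04): its gap to the nearest library, as a share of the whole range, was 0.632, past the 95% limit of Dixon's test for 6 samples. That library had 1 read of Cish and 30 of Socs2, the fewest and the most of any library for these genes. This was 1 of 24 groups of values examined, and chance flags about 1 in 20.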

How the results depend on the processing

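Socs1 stayed higher and Socs3 lower, both called, in every alternative that tested them: other scalings, filters and pseudocounts, weighted voom, no trend, the replicate block, the length correction, a threshold of 0.01 and the omission of libraries. With each library left out in turn Socs1 ran from 0.60 to 0.80 and Socs3 from -0.56 to -0.49. Socs4 ran from 0.17 to 0.25, and its call was lost with library totals as the scaling (0.20), without trend and robust moderation (0.21), at the threshold of 0.01 (0.21) and without mimic replicates 3, 4 and 6 (0.070). In these 4 settings 1 member was higher, and 1 to 2 with each library left out; 1 was lower throughout. Socs6 turned to -0.026 with the length correction and -0.0047 without mimic replicates 3, 4 and 6, and Socs7 to -0.057 with the length correction; neither was called. With each library left out Socs2 ran from -0.32 to -0.069, Socs5 from -0.098 to 0.0024 and Socs7 from -0.0018 to 0.033.

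The count of all genes higher and lower was 1214 and 886 without mimic replicates 3, 4 and 6, 967 and 792 at the threshold of 0.01, and 1488 to 2693 and 1403 to 2506 with each library left out. Lower genes of the pathway lists numbered 8 in each of the first 2 settings. The difference in the log2 ratio of Socs1 to Socs3 was 1.31 without mimic replicates 3, 4 and 6 (p = 0.0179 by the exact permutation test, the smallest that 3 against 5 allows, and 0.0714 over the 4 pairs). It was 1.17 in the replicate block (p = 0.0625 by exact sign flips, the smallest that 5 pairs allow, and 0.25 over the 4 pairs). Neither passed after adjustment. Socs4 over Socs5 was 0.23 with the length correction (exact permutation p = 0.0303, adjusted p = 0.0455). Cish was not length-corrected, so this adjustment covered fewer than the 4 pairs and does not compare with the adjusted values above. Socs4 over Socs5 ran from 0.19 to 0.31 with each library left out. Cish over Socs2 ran from -0.54 to -0.083 with each library left out. Socs6 over Socs7 was -0.0099 without mimic replicates 3, 4 and 6 and ran from -0.00042 to 0.050 with each library left out. The cause of these shifts was not tested.

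The replicate numbers are shared between groups, but same-numbered libraries did not deviate together (correlations from -0.061 to 0.062 over 5 pairs). With the number as a block 1775 genes were higher and 1793 lower, and 1991 and 1930 in the same 10 libraries without it; no call of a SOCS member changed. For 36 other named genes, 780 of the values under alternatives kept direction and call and 45, from 11 genes, lost the call, with 0 reversed. Depth limits Cish, with at most 5 reads per library, and Socs2, whose 95% interval of -0.63 to 0.28 holds a fall as large as that of Socs3.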
